A study of Mus musculus with 17 samples.

Results

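The experiment compared gene expression in germinal centre (GC) B cells of 3 mice treated with anti-DEC-OVA, from which cells with low mCherry fluorescence were sorted, with that in 3 untreated mice, all at day 10 after immunization. Its members were the cells of the first pool of the series that had at least 200 detected genes and less than 10% mitochondrial UMIs and that carried the hashtag antibody of 1 of these 6 mice. This gave 7457 cells of the 69340 cell barcodes in the 6 deposited matrices. The 3 untreated mice had 515, 1157 and 211 cells, and the 3 treated mice had 1765, 1851 and 1958. Recipients in all groups were wild-type CD45.1 mice that had been primed with OVA. They received B1-8hi B cells, which bind the hapten NP, and were immunized in the footpad with NP-OVA. The study used male and female mice, and the sex of donors and recipients in this pool is not stated. A minority of the transferred cells expressed DEC-205, were heterozygous for B1-8hi at Igh, and carried 1 Col1a1 allele with tetO-H2B-mCherry next to the Vav-tTA transgene, in which the Vav promoter drives tTA in blood cells, and the majority were Ly75-/- B1-8hi cells, which lack DEC-205. Treated mice received anti-DEC-OVA at day 7, and doxycycline, which shuts off H2B-mCherry synthesis, was given afterwards. Untreated mice at day 7 (3 mice, 3224 cells) were sequenced in the same pool and entered the fit, where they helped to estimate the spread. Treated cells were sorted as DEC-205+ and mCherry-low, whereas for untreated mice the methods state only a sort of B1-8hi cells. The effect of the treatment and that of the sort therefore cannot be told apart.

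GC B cells alternate between a dark zone, where they divide and mutate their immunoglobulin genes, and a light zone, where they present antigen on MHC class II to T follicular helper cells. Anti-DEC-OVA delivers the antigen OVA to B cells that carry the endocytic receptor DEC-205. It raises the amount of peptide they present and sends them into a run of divisions in the dark zone. Because no new H2B-mCherry is made under doxycycline, each division dilutes the label, and labelled cells that end with the least label have divided the most. Cells that never carried the label are also mCherry-low, and how many of the sorted cells had carried it was not tested. The comparison asked which genes differed between the mCherry-low cells and GC B cells of untreated mice.

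Several features of the libraries moved with the groups. Total UMIs were between 349784 and 2287359 per untreated mouse and between 3990006 and 4728692 per treated mouse, and the median UMIs per cell were between 1414 and 1618 in the former and between 1750 and 1992 in the latter. The cells are labelled GC B cells, and GC B cell markers were present in both groups. The summed level of 8 GC B cell markers, Bcl6 and Fas among them, was between 1695 and 2000 CPM, the UMIs of a gene or list scaled to a common total per mouse, in untreated mice and between 2030 and 2079 in treated mice. Basp1, with means of 322 and 509 CPM, was the 1 of them that rose, and the median log2 fold change of the 8 was −0.003. Summed plasma cell markers were between 1396 and 1529 CPM in untreated and between 1675 and 2326 CPM in treated mice. Summed T cell markers were between 1.504 and 10.1 CPM over these 6 mice, granulocyte markers were at most 0.238, and myeloid markers were between 6.34 and 65.1. Dendritic cell markers (37.2 to 53.7 CPM in untreated and 59.0 to 72.6 CPM in treated mice) also separated the groups, and were higher in treated mice. So were stromal cell markers (26.8 to 48.1 CPM and 51.1 to 55.0 CPM). Of the 6 dendritic cell and 7 stromal cell markers, Itgax, Siglech, Pdgfra, Pdgfrb and Col1a1 were at 0 in all mice. The other members made up these sums. In each of these lists 1 member was tested, with log2 fold changes of 0.33 and 0.44, and neither was called. Summed B cell markers were between 6516 and 7382 CPM in untreated and between 5669 and 6592 CPM in treated mice, which overlapped. The highest myeloid value came from untreated replicate 2. None of the cell barcodes of the pool occurred in the pools of the second experiment (0 shared). 

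The first of these features was the light chain. B1-8hi cells that bind NP use the lambda light chain Iglv1. Among cells with a light-chain contig, kappa contigs were found in 14.8%, 13.2% and 16.9% of cells in untreated mice and in 39.1%, 39.8% and 69.7% in treated mice. Kappa cells were thus present in both groups, and how they entered the sort was not tested. The groups did not overlap, and the 95% Wilson interval of the highest untreated mouse (9.48% to 28.5%, 10 of 59 cells) lay below that of the lowest treated mouse (35.01% to 43.4%, 203 of 519 cells). These intervals cover counting error only. Results are therefore also given for cells with an Iglv1 contig and no kappa contig, called Iglv1 cells here, which numbered between 49 and 331 per untreated mouse and between 157 and 361 per treated mouse.

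The other was the sex of the cells. Cells with a UMI of Ddx3y, Eif2s3y, Kdm5d or Uty, genes of the Y chromosome, made up 9.71%, 7.95% and 8.53% of cells in untreated mice and 30.9%, 31.2% and 29.4% in treated mice. Gm26992 (GRCm39 chromosome X, 102465616 to 102525311, plus strand), a gene model that overlaps Tsix and, on the opposite strand, Xist, the RNA that silences 1 X chromosome in female cells, had 58.8, 57.4 and 51.2 CPM in untreated mice. It had 0.237, 0.499 and 0.213 CPM in treated mice. Both groups of genes gave separate levels in the 2 groups, and the mice at day 7 had even fewer cells with Y-linked UMIs (2.08% to 5.47%). Sex and treatment cannot be told apart in this pool. Across the Y chromosome, all 4 tested genes rose, by between 1.49 and 1.77 on the log2 scale, and the X-linked demethylase gene Kdm6a, which escapes X inactivation, fell by 0.61 (adjusted p = 0.00447). Kdm6a was no longer called without untreated replicate 1 or without untreated replicate 2, and Kdm5d without untreated replicate 2.

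Last, a few cells had 30 or more UMIs of Jchain, the joining chain of secreted antibodies. There were 1, 1 and 0 such cells in the untreated mice, where 0 of 211 cells allows a share of up to 1.42%, and 15, 3 and 24 in the treated mice. The shares overlapped, at 0.194% and 0.0864% in the first 2 untreated mice and 0.850%, 0.162% and 1.23% in the treated mice. Other plasma cell genes that had not chosen these cells were high in them. In the 42 treated cells, Xbp1, a transcription factor of secretory cells, stood at 2245 CPM against 99.9 in the other treated cells, and Mzb1, a chaperone of antibody assembly, at 10330 against 450 CPM. Prdm1, the regulator of plasma cell fate, was at 105 against 0.627, and Sdc1, the plasma cell surface marker CD138, at 118 against 0.235. Pax5 and Bcl6, which plasma cells switch off, were at 12.4 and 0 CPM in them against 383 and 195. In all, 12, 2 and 20 of the 15, 3 and 24 cells carried a kappa contig. Several results on genes of secretion are given below with and without these few cells.

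**Figure D1:**
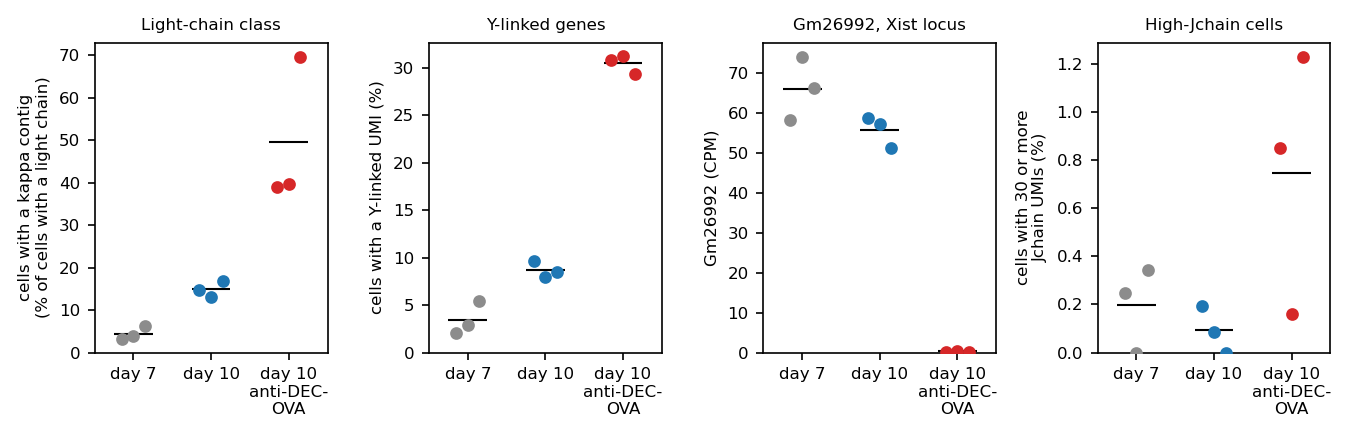
Share of cells with a kappa contig among cells with a light chain (%), share of cells with a Y-linked UMI (%), Gm26992 level (CPM) and share of cells with 30 or more Jchain UMIs (%). Points are mice (3 per group), lines are means, and the first 3 panels separate treated from untreated mice at day 10 while the fourth shows overlapping values.

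UMIs were summed per mouse and tested gene by gene, with a gene called where its p-value, adjusted over all genes tested, was below 0.05. Of 9078 genes tested, 177 were called (1.95%), 75 of them higher (0.826%) and 102 lower (1.12%) in treated than in untreated mice. The median change was 0.77 on the log2 scale among the higher genes and −0.75 among the lower genes, against −0.002 over all genes tested. CPM values of the 3 and 3 mice did not overlap in 73 of the 75 higher and 92 of the 102 lower genes, beside 17% of all genes tested. The count leaned on single mice. Without untreated replicate 2, the deepest of the untreated mice, 55 genes were called, without untreated replicate 1 there were 105, and 43 of the 177 genes were called whichever mouse was left out. Littermates were used, and the cells of each mouse had their own hashtags but were sequenced in a shared pool, so that p-values measure the spread between these mice.

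**Figure D2:**
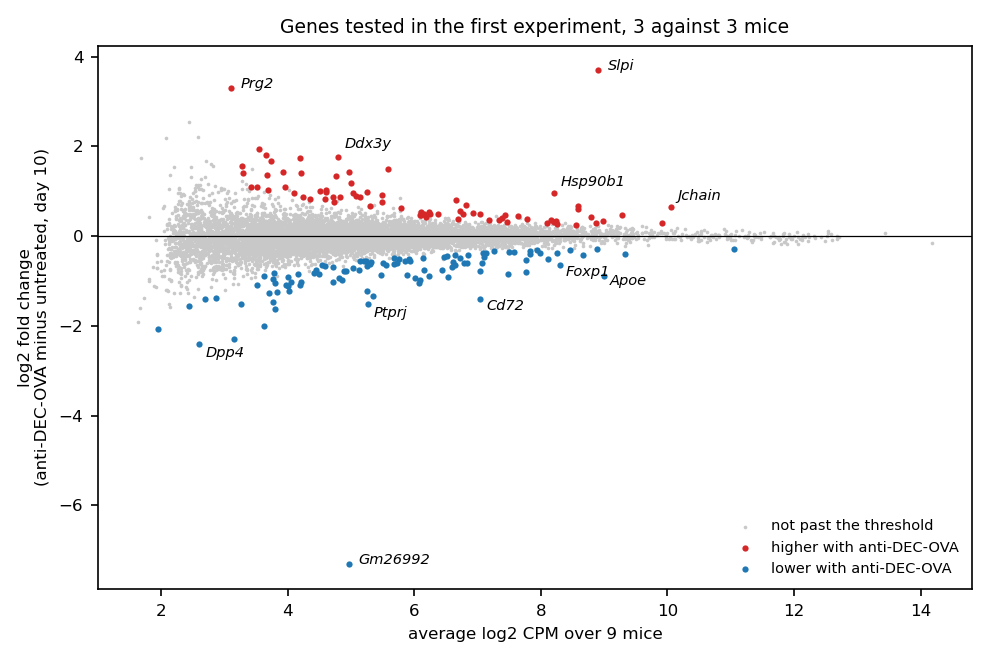
Log2 fold change of treated over untreated mice at day 10 (vertical axis) against average log2 CPM over the 9 mice of the pool (horizontal axis), 1 point per gene. Red points were higher and blue points lower at an adjusted p below 0.05, with Slpi at 3.70 and Gm26992 at −7.32 at the extremes.

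Slpi (ENSMUSG00000017002, GRCm39 chromosome 2, 164195990 to 164231015, minus strand), which encodes a secreted inhibitor of leukocyte proteases, rose most. Its level was 92.6, 79.1 and 42.7 CPM in untreated mice and 1136, 362 and 1570 CPM in treated mice. All treated mice lay above all untreated mice at day 10, with treated replicate 2 the lowest of its group. The log2 fold change was 3.70 ± 0.41 (SE, n = 3 and 3 mice, adjusted p = 8.44e-07). Untreated mice at day 7 had 300, 83.6 and 96.7 CPM. The 15, 3 and 24 cells with many Jchain UMIs held 69.7%, 38.6% and 73.3% of the Slpi UMIs of their mice, and without them the log2 fold change was 2.25 (adjusted p = 2.44e-09). Slpi UMIs were also found in a larger share of cells. At least 1 Slpi UMI was found in 6.16% to 9.71% of cells in untreated mice and in 24.9% to 39.3% in treated mice. When every cell was thinned to 1007 UMIs, these shares were 2.91% to 5.97% and 16.5% to 24.5%. The cells of all mice shared 1 library and thus its free RNA, and the untreated share is an upper limit for what free RNA gave there. In Iglv1 cells, Slpi stood at 83.6, 105 and 30.001 CPM in untreated mice and 784, 415 and 2322 CPM in treated mice, a log2 fold change of 3.64. Iglv1 cells of the untreated mice at day 7 had 649, 68.2 and 144 CPM, the first of which exceeded treated replicate 2. Without the 2, 1 and 4 Iglv1 cells of treated mice and the 1, 1 and 0 of untreated mice that had 30 or more Jchain UMIs, Slpi stood at 84.0, 52.9 and 30.1 CPM and 219.5, 180.5 and 350.4 CPM, a log2 fold change of 1.99 (adjusted p = 4.86e-13). Slpi was also the 1 gene called when only cells with a Y-linked UMI and no Gm26992 UMI were summed (log2 fold change 2.58, adjusted p = 0.000539), a comparison that kept 18 to 91 cells per untreated mouse. Cells with many Jchain UMIs were kept in these sums. Of them, 4, 3 and 8 in treated mice and 0, 0 and 0 in untreated mice had a Y-linked UMI. The Slpi fold in cells with a Y-linked UMI was not computed without them. No other gene passed the threshold in cells with a Y-linked UMI among 2832 tested with edgeR, and 164 had an unadjusted p under 0.05. Of the 177 genes, 82 could be tested there, and 74 of them had the same direction. Some folds stayed close in size, such as Cd72 (−1.07), Gstt2 (−0.77) and Basp1 (0.56), whereas Apoe was at −0.15 there against −0.90 in all cells.

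Beyond Slpi and the Y-linked genes, the largest rises among named genes with an average log2 CPM above 4 and no overlap between the groups were in Dlgap2, Adap1, Igf2bp3, Ifi47, Sdc4, Ahcyl2, St3gal6 and Irf1. Dlgap2 (chromosome 8, 14145850 to 14903418), which encodes a scaffold protein of synapses, had 11.6, 13.9 and 14.2 CPM in untreated mice and 39.5, 41.2 and 27.3 CPM in treated mice (log2 fold change 1.43 ± 0.23, adjusted p = 0.000185). Its level at day 7 was 32.4 ± 6.57 CPM (SD, n = 3), so that treated mice at day 10 lay near the untreated mice at day 7. Igf2bp3 (chromosome 6, 49062144 to 49192447), an mRNA-binding protein, went from 13.5, 16.5 and 17.1 CPM to 38.1, 38.9 and 42.2 CPM (log2 fold change 1.34 ± 0.17, adjusted p = 6.63e-06) and was at 9.02 ± 0.931 CPM at day 7. Treated mice were thus above both untreated groups for Igf2bp3, but not for Dlgap2. As with Dlgap2, the means at day 7 lay near those of treated mice for Adap1 (19.4 and 20.1 CPM), Sdc4 (25.9 and 25.8 CPM), Ahcyl2 (27.8 and 22.5 CPM) and St3gal6 (23.2 and 27.1 CPM), and the low values were those of untreated mice at day 10. Adap1, a GTPase-activating protein for Arf6, rose from 8.68, 8.26 and 0 CPM to 21.1, 18.2 and 21.1 CPM. Sdc4, the heparan sulfate proteoglycan syndecan 4, whose gene lies near Slpi on chromosome 2 (164266025 to 164285807), rose by 1.02 ± 0.20 (adjusted p = 0.00282). St3gal6, a sialyltransferase, rose by 0.991 and Ahcyl2, a relative of adenosylhomocysteinase, by 0.995. The calls for Adap1, Sdc4, Ahcyl2 and St3gal6 were lost without untreated replicate 2, that for Ahcyl2 also without untreated replicate 3 or treated replicate 2, and Dlgap2 and Igf2bp3 kept theirs whichever mouse was left out.

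Apart from Gm26992, the largest falls among genes with an average log2 CPM above 4 and no overlap between the groups were in Ptprj, Cd72, Pkib and Zeb2. Ptprj (ENSMUSG00000025314, chromosome 2, 90260098 to 90410991, minus strand), the receptor tyrosine phosphatase CD148, stood at 56.9, 60.001 and 59.7 CPM in untreated mice and 18.2, 28.9 and 15.6 CPM in treated mice. The untreated mice were close together and lay above all treated mice (log2 fold change −1.51 ± 0.18, adjusted p = 1.53e-06). Cd72 (ENSMUSG00000028459, chromosome 4, 43446431 to 43455129, minus strand), an inhibitory coreceptor of B cells that is also a light-zone gene, went from 204, 212 and 193 CPM to 63.2, 89.6 and 81.2 CPM (log2 fold change −1.41 ± 0.10, adjusted p = 3.03e-11). In Iglv1 cells, the fall of Cd72 was larger, at −2.23, with 222, 221 and 120 CPM in untreated mice and 54.5, 40.9 and 35.9 CPM in treated mice. Pkib, an inhibitor of protein kinase A, fell by 1.22, from 55.0, 67.8 and 65.4 CPM to 22.01, 35.4 and 24.7 CPM. Akap12, a scaffold for the same kinase, went from 26.04, 26.96 and 39.8 CPM to 15.9, 13.7 and 12.2 CPM, near its 12.3 ± 2.76 CPM at day 7.

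The other large falls were in Zeb2, a zinc-finger repressor (−1.22), Trio, a guanine nucleotide exchange factor (−1.12), Itm2c, a membrane protein of intracellular vesicles (−1.09), B3gnt8, a glycosyltransferase (−1.03), Cacna1e, a calcium channel subunit (−1.02), Lipc, hepatic lipase (−0.98), Tmem121, a membrane protein of uncertain role (−0.98), and Gstt2, a glutathione transferase (−0.94). Lipc and Gstt2 were the most even among them. Lipc had 115, 103 and 117 CPM in untreated and 55.9, 59.1 and 49.9 CPM in treated mice, and Gstt2 had 103, 100 and 114 CPM and 54.7, 52.4 and 53.7 CPM. At day 7, Gstt2 stood at 54.3 ± 8.30 CPM and Lipc at 60.8 ± 7.30 CPM, levels like those of treated mice at day 10. The calls for Zeb2, Trio, Itm2c, B3gnt8, Cacna1e, Akap12 and Tmem121 were lost without untreated replicate 2, and that for Tmem121 also without untreated replicate 1. Among abundant genes outside the naming rule, chosen after their values were seen, Apoe, the lipid carrier, fell from between 639 and 651 CPM to between 278 and 426 CPM (log2 fold change −0.90, adjusted p = 1.65e-06). Foxp1, a transcription factor that GC B cells keep low, fell by 0.63 from 332, 359 and 472 CPM to 210, 270 and 238 CPM (adjusted p = 4.19e-05).

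**Figure D3:**
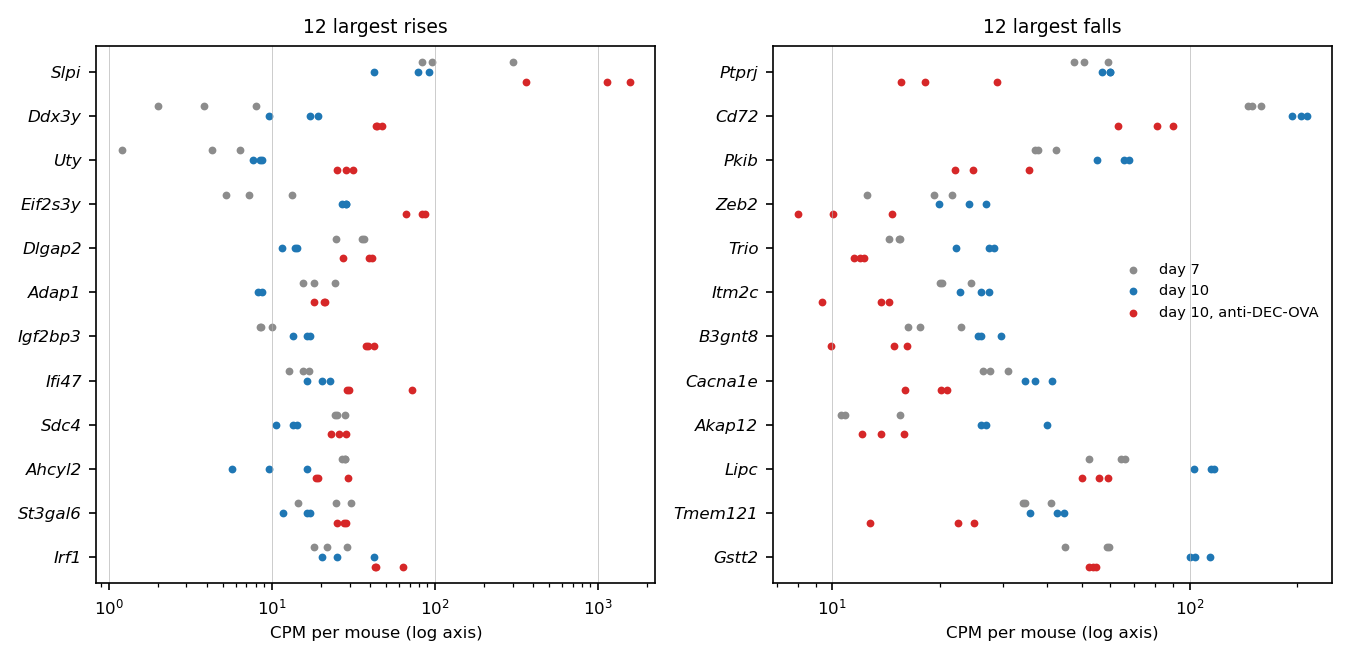
CPM of each mouse (log axis) for the 12 largest rises and the 12 largest falls among genes with an average log2 CPM above 4 and no overlap between the 3 treated (red) and 3 untreated (blue) mice at day 10. Mice at day 7 (grey) lay near the treated mice for Dlgap2, Lipc and Gstt2 and near the untreated mice for Ptprj. The 0 CPM of Adap1 in untreated replicate 3 is not drawn on the log axis.

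Ly75, which encodes DEC-205 itself (chromosome 2, 60122441 to 60213682), rose by 0.91 ± 0.19 on the log2 scale (adjusted p = 0.00443). It had 28.9, 24.3 and 11.4 CPM in untreated mice and 54.0, 41.7 and 41.4 CPM in treated mice. The paper describes the treated cells as DEC-205-expressing and mCherry-low, and what this selection added to the rise was not tested. In Iglv1 cells, the rise was 1.64. The call was lost without untreated replicate 2. Chromosome 2 held 18 called genes of 710 tested (2.54%), Ly75, Slpi, Sdc4, Ptprj and Zeb2 among them, beside 1.95% over all genes and 4.08% on chromosome 6 (17 of 417).

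Among genes of antibody secretion, the rise of some but not all went with few cells. The joining chain gene Jchain went from 812, 890 and 828 CPM to 1476, 1029 and 1498.5 CPM (log2 fold change 0.65 ± 0.09, adjusted p = 2.9e-05). Hsp90b1, the chaperone of the endoplasmic reticulum (ER) known as GRP94, had 189, 209 and 171 CPM in untreated mice and 367, 256 and 522 CPM in treated mice (0.96 ± 0.15, adjusted p = 0.000159). Treated replicate 2, which had the fewest cells with many Jchain UMIs, was the lowest treated mouse for both. Of 9 tested genes in a list of 14 plasma cell genes, Jchain and Mzb1 rose and none fell, beside 0.826% of all genes called higher. Of 22 tested genes for ER folding and quality control, a list added after values were seen, Hsp90b1, Pdia4, Edem1 and Hspa5 rose and none fell, beside 0.826% of all genes tested that were called higher. The list had a median log2 fold change of 0.09 against −0.002 over all genes. When the cells with 30 or more Jchain UMIs were left out, the log2 fold changes were 0.04 for Hsp90b1, −0.18 for Pdia4, 0.03 for Hspa5 and 0.06 for Mzb1, and none of these passed the threshold. Jchain (0.27, adjusted p = 0.00789) and Edem1 (0.56, adjusted p = 0.00259), which helps to remove misfolded glycoproteins, remained called. After thinning to 1007 UMIs, cells with a Jchain UMI made up 47.7% to 51.1% in untreated and 55.9% to 59.5% in treated mice, and cells with an Edem1 UMI 6.2% to 8.14% and 8.67% to 11.5%. Jchain itself had defined the cells left out, so its lower value there follows from the rule. Hspa5 lost its call in 5 of the 6 fits without 1 mouse and Pdia4 in 4 of them, and Mzb1 without untreated replicate 1 or 2 or treated replicate 3.

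The promoters of some genes of the ER and plasma cell lists held a known element. The ER stress response element, CCAAT and CCACG with 9 bases between them, is bound by ATF6 together with NF-Y when unfolded proteins accumulate. Searched on both strands in promoters from RefSeq (GRCm38.p6, 250 bases before to 50 after each start), it occurred in 39 of 32851 promoters (0.119%) and in 10 of the 31 promoters found for the ER and plasma cell lists. The ER list was chosen by gene function after values were seen, so these shares do not test regulation in these cells. The sites of Hspa5, Hsp90b1 and Creld2 are shown because their genes had high UMIs in the cells with many Jchain UMIs, with the motif letters in capitals. The sites are at chr2:34772020-34772048 (plus strand) for Hspa5, at chr10:86705633-86705661 (minus strand) and chr10:86705528-86705556 (plus strand) for Hsp90b1, and at chr15:88819515-88819543 (minus strand) for Creld2.
Hspa5: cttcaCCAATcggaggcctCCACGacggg
Hsp90b1, first site: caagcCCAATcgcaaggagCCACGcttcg
Hsp90b1, second site: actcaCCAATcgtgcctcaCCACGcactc
Creld2: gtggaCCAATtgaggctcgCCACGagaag
Creld2, a secreted ER protein induced by this pathway, was at 40.5, 43.9 and 48.4 CPM in untreated mice and 55.1, 56.4 and 80.4 CPM in treated mice (log2 fold change 0.57 ± 0.16, adjusted p = 0.0575). It did not pass the threshold, and without the cells of many Jchain UMIs its log2 fold change was 0.037. No match was found in the promoters of Pdia4 and Edem1, which says only that these letters are not in that window.

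Irf1 and Ifi47, genes of the interferon response, rose in the treated mice but varied among them. Irf1, a transcription factor downstream of interferon, rose from 20.3, 25.2 and 42.7 CPM to 43.8, 42.7 and 63.5 CPM (log2 fold change 0.97 ± 0.20, adjusted p = 0.00458). The highest untreated mouse, replicate 3, nearly reached the lowest treated mouse. Ifi47, an interferon-inducible GTPase, had 16.4, 20.4 and 22.8 CPM against 28.9, 29.9 and 72.3 CPM (1.19 ± 0.31, adjusted p = 0.0406). Treated replicate 3 was the highest mouse for both genes. Of 24 interferon-stimulated genes, 12 were tested, 1 of them rose and none fell, beside 0.826% of all genes called higher. The median log2 fold change of the 12 was 0.64. Ifi47 was no longer called without any 1 of the untreated mice or without treated replicate 3, and Irf1 without untreated replicate 1 or 2. In Iglv1 cells, Irf1 (1.44) and Ifi47 (1.69) were both called.

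The gamma-activated site, TTCNNNGAA, an element of promoters that respond to interferon gamma, reads alike on both strands. It was found in 2726 of the 32851 promoters (8.3%) and in 4 of the 20 promoters found for the interferon-stimulated genes and Irf1. The site of Irf1 is shown because its transcript changed, at chr11:53769919-53769937 (GRCm38.p6, plus strand), with the motif letters in capitals.
Irf1: ctgatTTCcccGAAatgat

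Genes of cholesterol synthesis and uptake were all above 0 in fold change. Of 15 tested, 3 rose and none fell, beside 0.826% of all genes called higher, with a median log2 fold change of 0.30 and a range from 0.11 to 0.88. Among them, Fdps, which makes farnesyl diphosphate, rose by 0.48 (adjusted p = 0.00228) and Hmgcs1, an early enzyme of the pathway, by 0.44 (adjusted p = 0.0489). Fdps was not called without untreated replicate 2, and Hmgcs1 was called in 1 of the 6 fits without 1 mouse, that without untreated replicate 2. In glycolysis, Pfkl, a phosphofructokinase subunit, rose by 0.87 from 12.5, 20 and 17.1 CPM to 30.5, 33.9 and 31.8 CPM (adjusted p = 0.00445), and Eno1, an enolase, by 0.37 (adjusted p = 0.0144). The other 12 of the 14 tested glycolysis genes did not pass the threshold, Pgam1 (0.30, adjusted p = 0.0896) and Aldoa (0.23, adjusted p = 0.124) among them. The median of the 14 was 0.20, and 0.826% of all genes were called higher. Pfkl was not called without untreated replicate 1, and Eno1 without untreated replicate 1 or 2 or treated replicate 3.

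Of the lists for antigen presentation and B cell signalling, 4 of 16 B cell receptor genes, 3 of 18 light-zone genes and 1 of 10 MHC class II genes were called, with Cd72 in both of the first lists, beside 1.95% of all genes tested. Of 10 MHC class II genes, all had a fold change below 0 (median −0.15), and H2-Oa, a chain of the inhibitor of peptide loading, fell, from 254, 249.6 and 313 CPM to 183, 223 and 189 CPM (−0.40 ± 0.09, adjusted p = 0.00862). The invariant chain gene Cd74 (−0.16, adjusted p = 0.108) and H2-Aa (−0.18, adjusted p = 0.0925) did not pass the threshold. In Iglv1 cells, 5 of the 10 were called lower, beside 57 of 7349 genes tested there. The median was −0.30, with Cd74 at −0.32 (adjusted p = 4.94e-06) and H2-Aa at −0.35 (adjusted p = 0.000148). Among 16 B cell receptor genes, Plcg2, a phospholipase, rose by 0.33 (adjusted p = 0.0132), while Cd79b, a signalling chain of the receptor (−0.28, adjusted p = 0.00892), Blnk, an adaptor (−0.28, adjusted p = 0.0282), and Cd72 fell. Of 18 tested light-zone genes, Cd72, Batf (−0.56, adjusted p = 0.0476), a transcription factor, and Cd83 (−0.38, adjusted p = 0.0406), a surface marker of the light zone, fell and none rose, and the median was 0.01. In Iglv1 cells, Cd79b (−0.47), Cd83 (−0.58), H2-Oa (−0.53) and Cd72 were called, whereas Plcg2 (0.058, adjusted p = 0.940), Batf (−0.074, adjusted p = 0.973) and Blnk (−0.14, adjusted p = 0.766) were not. Apart from Cd72, which was called whichever mouse was left out, all of these calls were lost without treated replicate 1. Those for H2-Oa, Cd83, Batf, Plcg2 and Blnk were also lost without untreated replicate 2, those for Cd83, Batf, Plcg2 and Blnk without untreated replicate 1, those for Blnk and Cd79b without untreated replicate 3, and those for Cd83 and Batf without treated replicate 3.

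Lists for cell division and hypermutation held no called gene, which for lists of 10 to 20 genes is near the 1.95% of all genes tested. By day 10, the paper describes the divisions induced by anti-DEC-OVA as subsiding and hypermutation as resumed. Earlier times after treatment were not part of this comparison. Of 15 genes that act on the deaminated base after the first step of hypermutation, such as the glycosylase Ung and the mismatch factor Msh6, none passed the threshold, and the median log2 fold change was 0.01. Hmces, which guards abasic sites, had 593, 562 and 589 CPM in untreated mice and 685, 620 and 655 CPM in treated mice, without overlap but with an adjusted p of 0.188. None of 10 dark zone genes (median 0.18), 20 S-phase genes (0.00096), 20 G2-M genes (0.09) and 13 tested G1 regulators (0.01) was called. Ccnd3, the D-type cyclin that drives dark-zone divisions, had 406, 390 and 341 CPM against 338, 355 and 374 CPM, which overlapped. Ccnd2 was near the limit of detection, with 2.84 to 7.39 CPM over the 6 mice. Cell cycle phases scored per cell also overlapped. The share of cells in G0-G1 was 49.9% ± 2.77 in untreated and 47.1% ± 7.04 in treated mice (SD, n = 3 and 3, two-sided exact permutation test, p = 0.6). With cells thinned to 1007 UMIs, the difference changed sign, from −2.78 to 0.25 percentage points. The difference between dark-zone and light-zone scores was −0.0971 ± 0.0296 and −0.0690 ± 0.0434 (SD, n = 3 and 3, two-sided exact permutation test, p = 0.4), where 3 against 3 mice cannot give less than 0.1. Their difference, 0.028, ran from 0.0137 to 0.0531 with each mouse left out and was 0.0063 with dark-zone genes outside the G2-M list and −0.0047 when cells were thinned as well.

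The remaining lists held at most 1 called gene each, which is near the 1.95% called over all genes. Basp1, a membrane-bound protein and 1 of 15 GC identity genes, rose from 301, 381 and 284 CPM to 506, 525 and 496 CPM (0.60 ± 0.09, adjusted p = 3.13e-05), and this call held whichever mouse was left out. Bcl6, the master regulator of the GC, was at −0.08 (adjusted p = 0.761) and S1pr2, which confines cells to the GC, at 0.12 (adjusted p = 0.698). No member passed among 20 genes of Myc and ribosome biogenesis (median −0.009), 13 tested memory precursor genes (0.37), 11 positioning receptors (0.12), 13 genes of the Bcl-2 family (0.10), 10 MHC class I genes (0.15), 11 immediate-early genes (0.07), 86 genes with ribosomal protein symbols, of which 6 are kinases of the Rps6k family (−0.02), and 13 mitochondrial genes (0.06). Myc itself had 31.8, 34.8 and 14.2 CPM in untreated mice and 28.6, 21.96 and 25.6 CPM in treated mice, which overlapped.

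**Figure D4:**
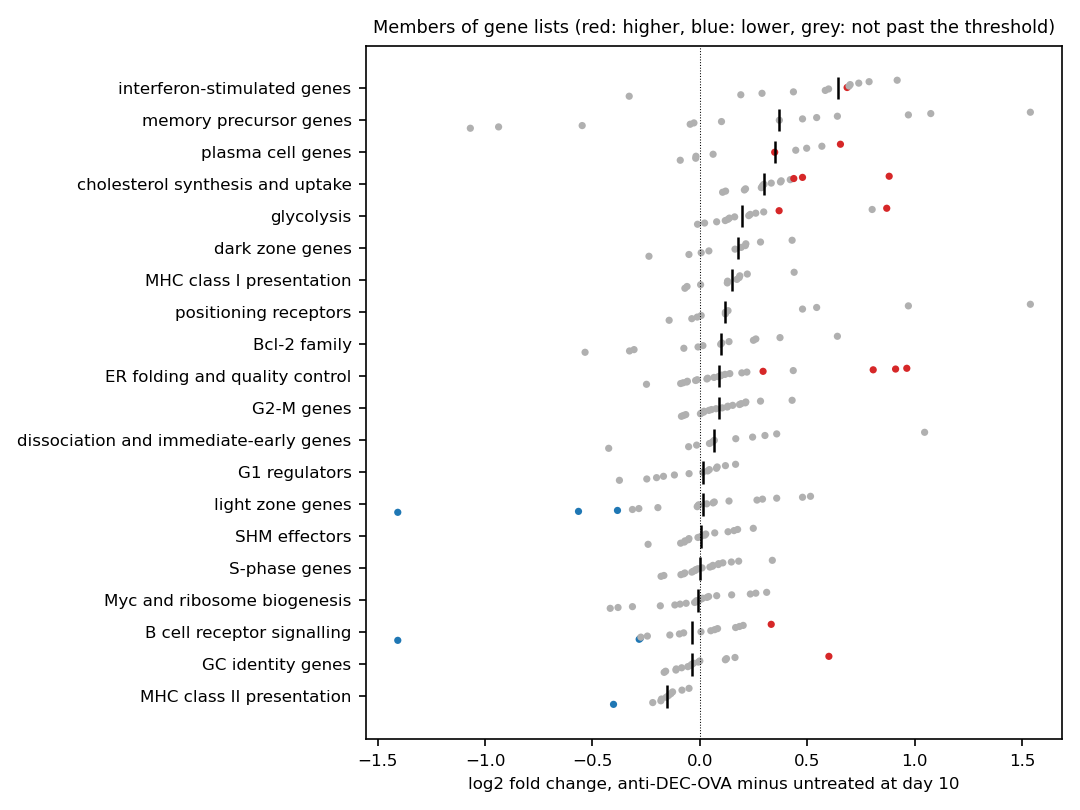
Log2 fold changes of the tested members of each gene list (points, treated over untreated mice at day 10), with the list's median as a black line. Sex-linked genes, ribosomal protein genes, mitochondrial genes and the lists of cell type markers are not drawn. Red and blue points passed the threshold upwards or downwards. Medians of the lists drawn ran from −0.15 for MHC class II genes to 0.64 for interferon-stimulated genes, and most members were grey.

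Restricting the comparison to Iglv1 cells gave 97 calls among 7349 tested genes (1.32%), 57 of which were among the 177. The Iglv1 cells are part of the cells summed above, and the 160 of the 177 genes that could be tested there had the same direction. Of the 24 named genes with the largest changes, 12 were called in Iglv1 cells as well. In cells with the B1-8hi pairing, which the study kept, 93 of the 177 genes could be tested, 89 had the same direction and 16 were called. These cells numbered between 17 and 160 per untreated mouse and between 16 and 64 per treated mouse. Within treated mice, kappa cells differed from Iglv1 cells of the same mouse in 62 of 6959 genes (0.891%, edgeR with a block for the mouse). Slpi was higher in kappa cells, with 4540, 729 and 4239 CPM against 795, 419 and 2352 CPM (log2 difference 1.40, adjusted p = 3.64e-07). Without the cells of 30 or more Jchain UMIs, most of which were kappa cells, it stood at 593, 232 and 561 CPM against 222, 183 and 354 CPM, and the difference was 0.84 (adjusted p = 4.56e-05). Cd72 was also higher in kappa cells, at 80.7, 181 and 100.3 CPM against 55.3, 41.2 and 36.4 CPM (1.44, adjusted p = 2.14e-05), the opposite of its fall with treatment. Of the 148 called genes tested in both, 10 differed between kappa and Iglv1 cells in the direction of the treatment and 3 in the other.

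The second experiment of the series held other treated and untreated mice at day 10, 8 untreated and 7 treated in 2 pools that shared 94 cell barcodes with each other. The groups are not alike in the 2 experiments, since an mCherry-low gate is stated for the treated cells of the first and not of the second, and the sex of the cells and the pool also differed. The paper names the cells of the second as DEC-205+, whereas the gate of untreated cells in the first is not stated beyond B1-8hi. The kit of each pool is not stated. In the second experiment, 898 of 10192 genes were called (8.81%). Of the 177 genes, 83 were called in the same direction there, which is 46.9% of the first list and 9.24% of the second, and 5 in the opposite direction, A530032D15Rik, Pdia4, Prg2, Rnpep and Tmem121. Genes that changed alike included Cd72 (−0.87 in the second experiment), Zeb2 (−1.47), Akap12 (−1.07), Pkib (−0.91), Gstt2 (−0.82), Adap1 (1.09), Dlgap2 (0.84) and Ly75 (0.80). Ephx1, an epoxide hydrolase, fell in both, by 2.00 and 1.46, and Dpp4, the surface peptidase CD26, by 2.40 and 2.13. Cholesterol genes had a median of 0.59 there with 14 of 15 higher, whereas interferon-stimulated genes had a median of −0.62 with 4 of 12 lower. Over all 10192 genes there, 468 were called higher and 430 lower.

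The effect itself differed between the experiments in 29 of 10192 genes (0.285%, interaction in edgeR). The count was 9 without untreated replicate 2 and between 16 and 24 without any other mouse of the first experiment. In the second experiment, Slpi ran from 64.4 to 420 CPM in untreated mice (mean 205) and from 40.3 to 238 CPM in treated mice (mean 136), which overlapped. Its log2 fold change there was −0.46 ± 0.33, and the effects differed by 4.18 (adjusted p = 0.0037). Ptprj, at −0.16 in the second experiment, differed by −1.33 (adjusted p = 0.0342). Hsp90b1 (1.34, adjusted p = 0.0251), Hspa5 (0.44, adjusted p = 0.031), Jchain (0.77, adjusted p = 0.00884), the 4 Y-linked genes, Gm26992 and Kdm6a also differed. For the sex-linked genes, no difference was called in the second experiment, with Ddx3y at 0.05 and Gm26992 at −0.12. Irf1 had a difference (1.07, adjusted p = 0.511) that did not pass the threshold. Prg2, an eosinophil granule protein, rose by 3.30 in the first experiment, from 0, 2.17 and 0 CPM to 14.9, 16.5 and 10.02 CPM, and fell by 1.94 in the second. In the first experiment, between 85.1% and 89.4% of its UMIs in treated mice came from cells with many Jchain UMIs.

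**Figure D5:**
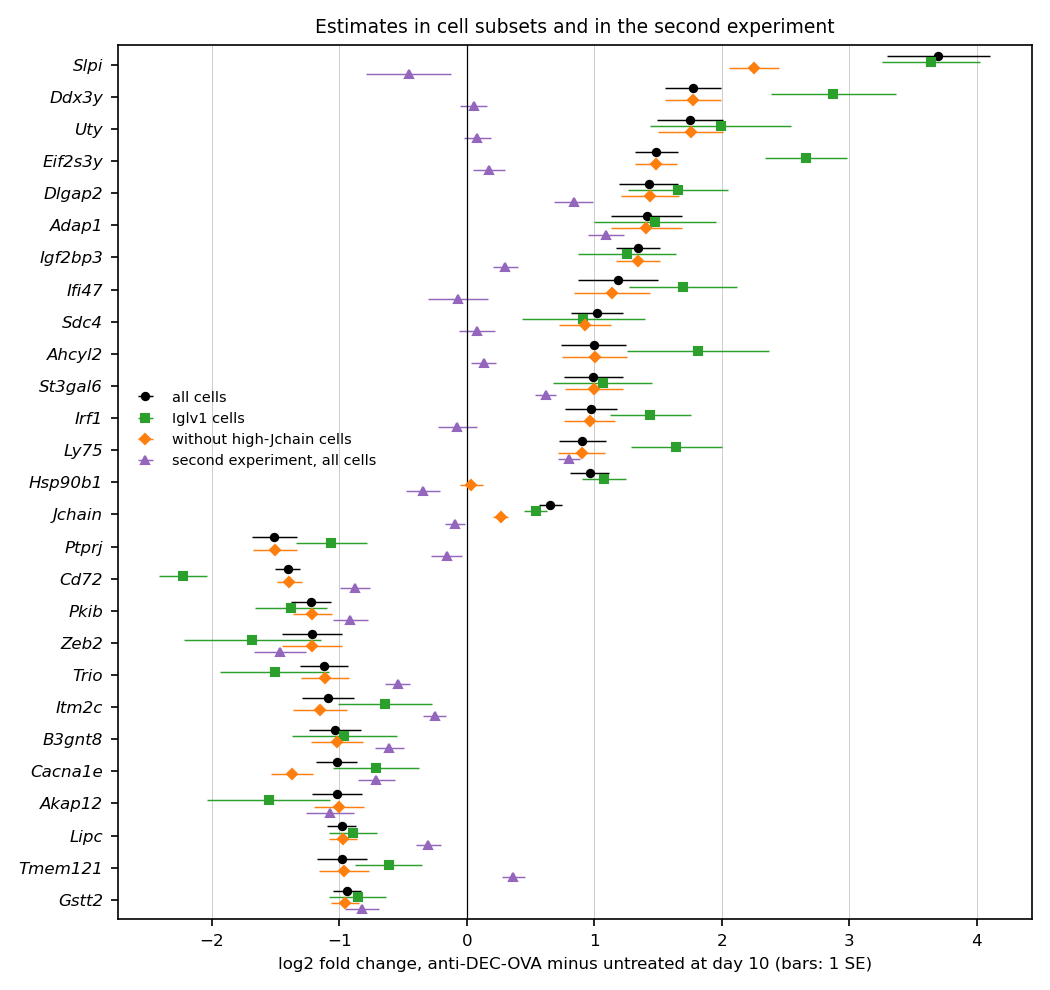
Log2 fold change of treated over untreated mice at day 10 with 1 SE for the 24 named genes and 3 further genes, in all cells, in Iglv1 cells, without cells of 30 or more Jchain UMIs, and in the second experiment. Hsp90b1 moved from 0.96 to 0.04 without those cells, Slpi from 3.70 to 2.25 and Ddx3y from 1.77 in the first to 0.05 in the second experiment.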

How the data were processed

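GC B cells of all mice of a pool were stained with hashtag antibodies, pooled, and sequenced as 10X Genomics 5′ libraries of transcripts, hashtags and immunoglobulin contigs. The authors deposited raw UMI counts of genes and hashtags in each cell, which were made with Cell Ranger on an mm39 reference (7.1.0 per the file headers for the first pool, 8.0.1 for the others, while the submitters' processing notes list 6.0.1). The groups of the mice come from the authors' list of mice and hashtags.

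Hashtag cutoffs came from HTODemux in Seurat 5.3.0 (quantile 0.99), which gave 10743 of 13801 cells to 1 mouse each. Cells positive for hashtags of several mice were left out, and doublets within a mouse were not searched for. Counts were summed per mouse over cells with at least 200 genes and less than 10% mitochondrial UMIs. All 9 mice of the first pool entered 1 fit in edgeR 4.0.16 (filterByExpr, TMM, quasi-likelihood test, Benjamini-Hochberg adjustment, threshold 0.05), which was tested on simulated data. CPM values of genes are relative to a mouse's TMM-scaled total, those of summed markers and of cells with many Jchain UMIs to the plain total. The mouse was the replicate. Phases and zone scores came from CellCycleScoring and AddModuleScore. The interaction with the second experiment had a term for the pool. Named genes were the 12 largest rises and falls among called genes with an average log2 CPM above 4, no overlap between the groups and a name of their own, then Ly75, Ccnd2, Ccnd3 and members of gene lists. The members and lists were chosen with earlier results of these data known. Alternatives were DESeq2 1.42.0, other size factors, no filters or stricter ones, another assignment of cells, each mouse left out, thinned counts, and subsets of cells, of which Iglv1 cells, cells without kappa or without any contig, cells with Y-linked UMIs, cells with fewer than 30 Jchain UMIs, and the 5% of cells with most UMIs left out were chosen after seeing the data. Transcripts of the Igh locus and light-chain genes are not analysed here, and some members of the gene lists are not reported by name. R 4.3.3 and Python 3.11.15 were used.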

Additional observations from a re-analysis of the deposited data

Results flagged for a closer look

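The effect of treatment at day 10 was called different between the first and the second experiment for 25 named genes (interaction in edgeR, adjusted p below 0.05), given here as the log2 fold change of the first minus that of the second. Over all genes, 29 such differences were called, and 9 without untreated replicate 2. Among sex-linked genes the differences were −7.26 for Gm26992, 1.74 for Ddx3y, 1.69 for Uty, 1.33 for Eif2s3y, 1.78 for Kdm5d and −0.69 for Kdm6a. Among genes of secretion they were 0.77 for Jchain, 1.34 for Hsp90b1, 0.44 for Hspa5, 0.48 for Ssr4, a subunit of the translocon complex, and 4.18 for Slpi. Prg2 differed by 5.29 and Rnpep, an aminopeptidase, by 2.28, and both rose in the first and fell in the second experiment. Tmem121 (−1.33) went the other way, falling in the first and rising in the second. Btg2, an antiproliferative gene (0.84), and Pttg1, which encodes securin (0.93), were not called in the first experiment and fell in the second. The other differences were −1.33 for Ptprj, −0.73 for Lck, 1.51 for Mical3, −0.76 for Rgs10, 0.91 for Pfkl, −1.27 for Insr, 0.48 for Eif2s1, −0.62 for Pdzd2 and −0.78 for Tango2. The experiments differed in the sort of the treated cells, in the sex of the cells, in the pool and in the Cell Ranger version. The gate of the untreated cells and the kit may also have differed, and these cannot be told apart.

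In the first pool, 533 cells were positive for a single hashtag that the list of mice does not give. They were used in no comparison.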

How the results depend on the processing

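Apart from the fits without 1 mouse, the count of 177 called genes moved by more than 1.5 times under 9 alternatives. It was 279 without a filter on low counts, 87 with DESeq2, 82 in cells in G0-G1, 37 with mice thinned to equal totals, 27 in cells with the B1-8hi pairing, 97 in Iglv1 cells, 99 in Iglv1 cells with fewer than 30 Jchain UMIs, 20 in Iglv1 cells thinned to equal totals and 1 in cells with a Y-linked UMI. These last 7 rest on fewer UMIs. With each mouse left out in turn, it ran from 55 to 235. The 29 genes that differed from the second experiment became 152 without the filter and 15 with the smaller pool of the second experiment alone, and ran from 9 to 24 with each mouse left out. The difference in the share of cells in G0-G1 was 0.25 percentage points with thinned cells, against −2.78, and from −6.83 to −0.47 with each mouse left out. Signs turned for Hsp90b1 (−0.12), Pdia4 (−0.55) and Hspa5 (−0.044) in cells without a contig, Pdia4 (−0.18) without cells of many Jchain UMIs, Kdm6a (0.022) in thinned mice, Rgs10 (0.17) and Sh3bgrl (0.023) in cells with a Y-linked UMI, and Gsn (−0.36) in cells with the B1-8hi pairing, and beyond the shares of UMIs given above the cause was not tested. The 24 largest named changes kept their direction in all 531 alternative values that could be computed and lost their call in 80. These genes were chosen for no overlap between the groups, which nearly fixes their direction when 1 mouse is left out. Most alternatives also sum largely the same cells, and not every gene could be tested in each. In cells with a Y-linked UMI, 1 of them kept its call and 2 lost it. In Iglv1 cells thinned to equal totals, 1 kept and 2 lost it, and in cells with the B1-8hi pairing 3 and 2. Of the 24, 11 were called whichever mouse was left out, and 13 were lost without untreated replicate 2. No paired analysis was possible because the mice of the compared groups share no numbers. A rule on light-chain transcripts was not run, since these genes are not analysed here. Untreated replicate 3, with 349784 UMIs, limits the precision for low genes.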

Other observations

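UMIs of a feature named Rtta in the count table were found in 8, 9 and 3 cells of the treated mice, in 1, 1 and 0 cells of the untreated mice at day 10 and in 0 cells at day 7, with at most 9 per mouse.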
